A study of Homo sapiens with 3 samples.

Results

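The genes described here encode 5 subunits of the phagocyte NADPH oxidase (CYBA, CYBB, NCF1, NCF4, and RAC2), both intracellular superoxide dismutases (SOD1 and SOD2), and catalase (CAT). They were chosen by symbol, and all probes whose gene name in the array design is 1 of these symbols were read. All 8 genes were found, of 43317 distinct gene names on the array, and they were represented by 13 of 58201 transcript probes. The RNA came from THP-1, an established human monocytic leukemia cell line, after phorbol ester (PMA) at 100 ng/mL for 24 to 36 h and a night in fresh medium, a step that gives macrophage-like cells and that all samples shared. The untreated sample (Ctrl) was compared with cells given imiquimod (IMQ), a toll-like receptor ligand used to activate macrophages, and with cells given a second agent before IMQ (IMQ+X). The labels call this agent X, and it was read as DMD, a benzenoid of the mushroom Antrodia cinnamomea, because DMD and IMQ are the agents that the series protocol names. According to the labels every sample was taken at 4 h, and no dose is stated there. Each condition was measured on 1 array, so no difference has a replicate check, an SD over cultures, or a p-value, and a culture cannot be told apart from its treatment.

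The phagocyte NADPH oxidase moves electrons from NADPH across a membrane to oxygen and so makes superoxide. Its catalytic core is the membrane pair of gp91phox, encoded by CYBB, and p22phox, encoded by CYBA. The core works only when cytosolic proteins, p47phox (NCF1) and p40phox (NCF4) among them, and a RAC GTPase join it, and monocytes and macrophages are among the cells best known for it. Superoxide dismutases turn superoxide into hydrogen peroxide, SOD1 mainly in the cytosol and SOD2 in the mitochondrial matrix, and catalase breaks hydrogen peroxide down. SOD2 is a textbook target of NF-κB in inflamed cells.

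All 13 probes were rated well above background by the scanner software on all 3 arrays, and 0 of their spots carried a saturation or outlier mark. Over the whole array this rating was reached by 66.6% to 72.0% of probes per array. The values below are the quantile-normalized intensities of the authors, a fluorescence scale without a physical unit, or their log2 values. A probe counted as changed when it differed at least 2-fold. The technical SD given with a difference came from 300 probes spotted 10 times per array and covers noise within an array only. For a single spot it was 0.04 at log2 levels between 12 and 13 and 0.10 between 7 and 8. Each array enters 2 of the 3 comparisons, so that these are not independent. No order of abundance between genes was drawn, because each probe binds its RNA with its own efficiency.

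The labelled monocytic origin was checked with macrophage markers. Of 8 listed markers, 6 had a probe under that symbol (CD14, CSF1R, ITGAM, MSR1, SPI1, and MRC1), and all 6 were well above background on each array. Summed over their probes, the intensity was 294254 (Ctrl), 226358 (IMQ), and 203415 (IMQ+X), and 1 probe, that of the growth factor receptor CSF1R, gave 224896 of it in Ctrl. The log2 difference of CSF1R was -0.38 after IMQ, that of the transcription factor SPI1 0.04, and that of the mannose receptor MRC1 -0.51, with MRC1 at 0.13 between IMQ+X and Ctrl. The scavenger receptor MSR1 fell by 1.02 on the log2 scale after IMQ by 1 probe and differed by -0.54 and -0.61 by its other measured probes. The endotoxin co-receptor CD14 went from a log2 level of 14.42 in Ctrl to 13.71 and 13.20, so that it fell by 1.21 between Ctrl and IMQ+X. Of 19 markers of T, B, and NK cells, keratinocytes, fibroblasts, endothelium, epithelium, and neutrophil granules, 16 or 17 were also well above background, at a summed intensity of 20331, 18632, and 17407 in Ctrl, IMQ, and IMQ+X. Bright among them in Ctrl were PECAM1 (endothelial list, log2 12.39 by its brightest probe), CD79A (B-cell list, 12.02), and ELANE (neutrophil granule list, 11.15). A signal above background thus did not set the macrophage markers apart from the others. EPCAM, an epithelial marker, was not well above background on any array. NCAM1, listed as an NK-cell marker, rose after IMQ from a log2 level of 5.14 to 8.21 by 1 probe, whereas NKG7, the other gene of that list, went from 9.88 to 8.97. In 1 keratinocyte list of 3 genes, KRT5 was at least 2-fold higher after IMQ+X than after IMQ, with log2 values of 5.68 and 4.15. The latter was not well above background. The KRT5 difference, taken from the lowest value of probes well above background, was 1.11 and ran from 0.44 to 1.73 over the processing settings. A KRT14 probe was at least 2-fold lower after IMQ+X than in Ctrl (3.25, not well above background, against 5.25). Its difference of -1.17, taken in the same way, ran from -1.40 to -0.44, whereas the other KRT14 probe differed by 0.32. THP-1 is 1 cell line, so a signal of these markers does not mean that such cells were present, and its source was not tested. In bulk RNA, fewer cells and less RNA per cell cannot be told apart.

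The probes that carried the largest differences are shown by 30 of their 60 bases, because the values depend on what each probe can bind. Those of NCF1 matter most, since NCF1 has the near-identical pseudogenes NCF1B and NCF1C. The NCF1 probes are numbered along the gene, which lies on the plus strand of chromosome 7 (hg19). Probe 1 covers chr7:74193443-74193502, probe 2 has its ends at chr7:74199612-74202353 and so spans a gap in the genome, probe 3 covers chr7:74202331-74202390, and probe 4 covers chr7:74203435-74203494. The last bases of probe 2 and the first bases of probe 3 overlap by 23 bases with 1 mismatch, and the overlap is in capitals.
NCF1 probe 1, first bases: atgttccctattgaggcaggggcgatcaat
NCF1 probe 2, last bases: tcaggaaAGACGACGTCACAGGCTACTTTC
NCF1 probe 3, first bases: AGACGACGTCACAGGCTACTTCCcgtccat
NCF1 probe 4, first bases: gccgagcgccgacctcatcctgaaccgctg
SOD2, first bases: ttgatgtgtgggagcacgcttactaccttc
CYBB, first bases: ggtttttcttagttcttctgcttttgcaat
NCF4, first bases: aagacttccctgaggaggacgaccccacca
Because the overlapping probes read the same stretch of RNA, they are not separate measurements of NCF1. The SOD2 probe lies at chr6:160103590-160103649 on the minus strand, the CYBB probe at chrX:37672561-37672620 on the plus strand, and the NCF4 probe at chr22:37271750-37271809 on the plus strand (all hg19). Whether each lies in coding sequence was not assigned.

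After IMQ, NCF1 and SOD2 rose, CYBB and NCF4 fell, and CYBA, RAC2, and SOD1 stayed within 0.22 log2 units of Ctrl. Catalase was lower by a log2 difference of -0.75, less than 2-fold. By the 2-fold rule, 5 of 13 member probes were higher, from 2 genes, and 2 were lower, from 2 genes. Over all 41107 probes compared, 4.31% were at least 2-fold higher and 3.48% at least 2-fold lower. The median log2 difference was -0.05 over the member probes and -0.01 over all probes, with 6 member probes above 0 and 7 below.

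**Figure D1:**
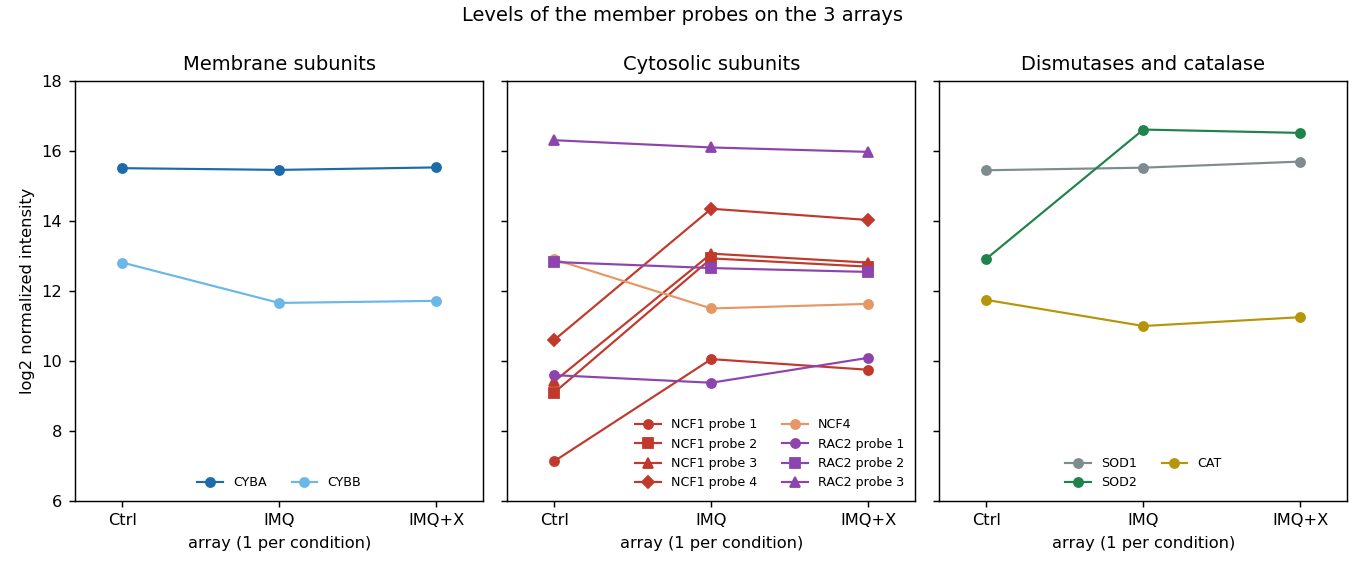
Log2 normalized intensity of the 13 member probes (vertical axis) on the Ctrl, IMQ, and IMQ+X arrays (horizontal axis), with 1 point per probe and array and lines joining the points of a probe. The NCF1 probes rose from between 7.13 and 10.60 to between 10.05 and 14.35 and SOD2 from 12.92 to 16.61 after IMQ, and both stayed high after IMQ+X, while CYBB and NCF4 were lower on both treated arrays.

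Among the membrane subunits, CYBB changed and CYBA did not pass the threshold. The Ctrl array gave a CYBB intensity of 7186, against 3229 for IMQ and 3364 for IMQ+X. Ctrl was high, and both treated arrays were low and close to each other. CYBB fell by 1.15 on the log2 scale after IMQ (technical SD 0.06), which is 2.23-fold, and 2.43% of all probes compared had a lower value. After IMQ+X the level was 2.14-fold below Ctrl and differed from IMQ by 0.06, about the technical SD. The CYBA intensity, for the partner that stabilizes gp91phox, was 46632 (Ctrl), 45062 (IMQ), and 47331 (IMQ+X). These 3 values lay within 1.05-fold of each other, and the sign of the small IMQ difference of -0.05 turned with the 75th percentile scaling (0.08). The CYBA probe lies at chr16:88713164-88713223 on the minus strand.

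NCF1, which encodes the p47phox organizer that carries the cytosolic complex to the membrane, rose by all 4 of its probes. The intensity of probe 4, the brightest, was 1551 (Ctrl), 20864 (IMQ), and 16699 (IMQ+X). For probe 2 it was 547, 7803, and 6621, and for probe 3 it was 682, 8568, and 7176 in the same order. Probe 1 gave 140, 1060, and 859. On each probe Ctrl was the lowest and IMQ the highest array. The rise after IMQ was 13.5-fold by probe 4, 14.3-fold by probe 2, 12.6-fold by probe 3, and 7.56-fold by probe 1, with technical SDs of 0.06 to 0.11 log2 units. Probe 1, the dimmest in Ctrl, gave a log2 difference of 2.92 against 3.65 to 3.84 for the others, a gap larger than the technical SD. Of all probes compared, 56 rose more than probe 2 and 132 rose more than probe 1.

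The NCF1 values cannot be assigned to NCF1 alone. The array design also lists all 4 NCF1 probes for the pseudogene NCF1C and probes 3 and 4 for NCF1B. A further probe named NCF1B on the array, looked up after the NCF1 values had been seen, had log2 levels of 7.98 in Ctrl, 11.53 after IMQ, and 11.19 after IMQ+X. It rose by 3.55 after IMQ and differed by -0.34 between IMQ+X and IMQ, so that the probe labelled NCF1B and the probes labelled NCF1 moved alike. How much of either signal comes from which copy was not tested.

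NCF4 encodes p40phox, which binds a membrane lipid and holds the oxidase active on phagosomes. Its intensity was 7651 on the Ctrl array and 2892 and 3168 on the IMQ and IMQ+X arrays, so that, as for CYBB, Ctrl was high and the treated arrays lay close together. It fell by 1.40 on the log2 scale after IMQ (technical SD 0.06), a 2.65-fold fall, and 1.33% of all probes compared had a lower value. After IMQ+X it was 2.42-fold below Ctrl.

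RAC2, the RAC GTPase typical of blood cells, was measured by 3 probes. Probe 3 (chr22:37621452-37621511) had an intensity of 81129 in Ctrl, 70295 after IMQ, and 64400 after IMQ+X. Probe 2, whose ends at chr22:37622795-37627281 span a gap, gave 7264, 6443, and 5966. Both were highest in Ctrl, with log2 differences of -0.21 and -0.17 after IMQ, and neither reached the 2-fold threshold. Probe 1 (chr22:37636848-37636907), which the array design ties to a cDNA clone and not to the RefSeq transcript, gave 772, 664, and 1088. It was highest after IMQ+X, with a log2 difference of 0.71 from IMQ (technical SD 0.07), whereas probes 2 and 3 differed by -0.11 and -0.13. The probes of RAC2 thus disagreed in that comparison.

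SOD2, the mitochondrial dismutase, reached 7749 in Ctrl, 100198 after IMQ, and 93784 after IMQ+X. The treated arrays were both far above Ctrl and within 1.07-fold of each other. The log2 difference was 3.69 after IMQ (technical SD 0.06), a 12.9-fold rise, and 61 probes of the array rose more. SOD2 rests on 1 spot per array. The SD of its pixels divided by their mean was ranked among spots within 1.5-fold of its brightness, with percentile 100 the most uneven. It stood at percentiles 27.5, 30.9, and 31.6 on the Ctrl, IMQ, and IMQ+X arrays. The spots of NCF1, CYBB, and NCF4 stood at percentiles between 1.4 and 88.1.

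SOD1, the copper-zinc dismutase of the cytosol, gave 44746 in Ctrl, 47095 after IMQ, and 53131 after IMQ+X (chr21:33040890-33040949). The log2 difference was 0.07 after IMQ and 0.25 between IMQ+X and Ctrl, both under 2-fold, and both turned negative without normalization between arrays or with scaling to the spike-in probes.

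Catalase had 10 spots on each array at chr11:34493034-34493093. Its processed intensity ranged over these spots from 3941 to 4368 in Ctrl (median 4143), from 1776 to 1976 after IMQ (median 1912), and from 2011 to 2187 after IMQ+X (median 2123). The spots of Ctrl did not overlap those of either treated array before normalization, and the spots after IMQ+X lay above those after IMQ. The median processed intensity of all probes also differed between the arrays, at 83.6 (Ctrl), 54.4 (IMQ), and 67.7 (IMQ+X). The 10 spots repeat 1 sample on 1 array, so their separation is no comparison between cultures. How many other repeated probes separated in this way was not counted, so the separation is not read as a trait of catalase. The coefficient of variation over the 10 spots was 3.05% to 3.85%. After quantile normalization the intensities were 3427, 2043, and 2433, and the log2 difference was -0.75 after IMQ (technical SD 0.07) and 0.25 between IMQ+X and IMQ. Without normalization between arrays catalase was 2.20-fold below Ctrl after IMQ, and with scaling to the spike-in probes 2.49-fold, so that its place beside the 2-fold threshold depended on the scaling.

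**Figure D2:**
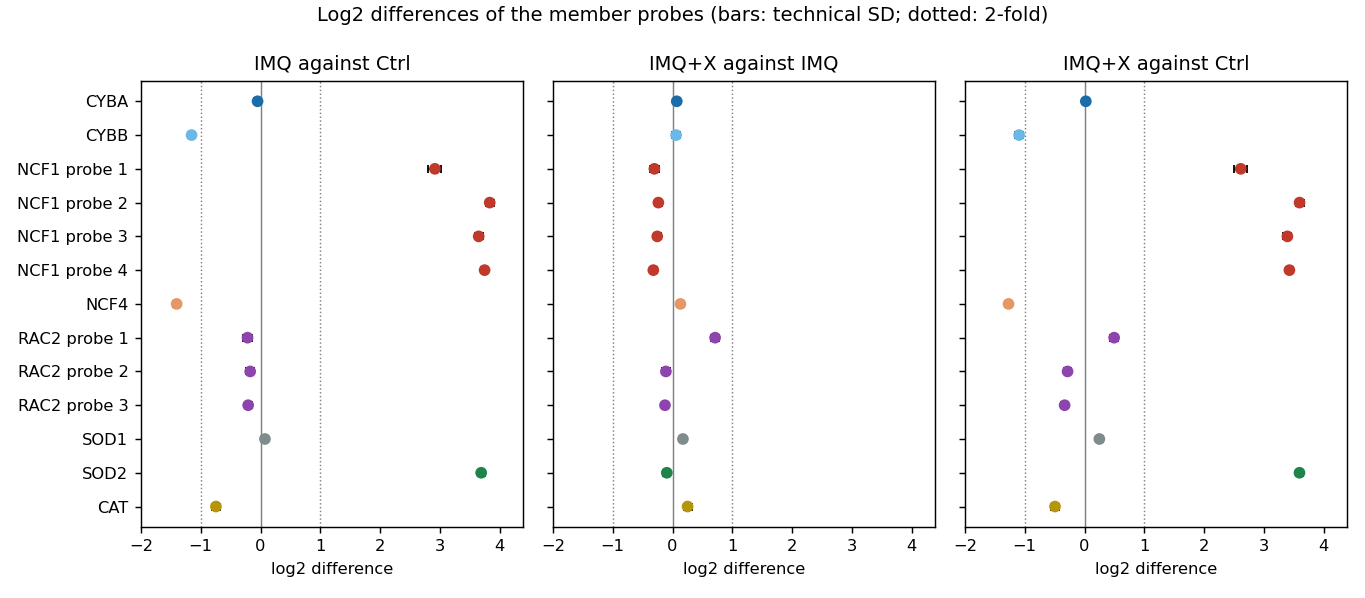
Log2 difference of each member probe (horizontal axis) in the 3 comparisons, with the technical SD as bars, many of them smaller than the points, and dotted lines at 2-fold. The 4 NCF1 probes and SOD2 lie right of the upper line for IMQ and for IMQ+X against Ctrl, CYBB and NCF4 lie left of the lower line, and 0 of 13 probes lie beyond either line for IMQ+X against IMQ.

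After IMQ+X the members lay near their IMQ levels. Between IMQ+X and IMQ, 0 of 13 member probes were at least 2-fold higher and 0 were at least 2-fold lower, while 1.09% and 1.31% of all 40828 probes compared were. With a 1.5-fold threshold, 1 member probe was higher, RAC2 probe 1, and 0 were lower. The member differences ran from -0.32 to 0.71, with a median of -0.10 beside -0.01 over all probes. All 4 NCF1 probes were lower after IMQ+X than after IMQ, by 0.24 to 0.32 on the log2 scale, or 1.18- to 1.25-fold, with technical SDs of 0.06 to 0.07. The NCF1 intensity after IMQ+X was thus 80.0% to 84.9% of that after IMQ, and 89.6% to 93.8% of the log2 rise over Ctrl remained. The NCF1 difference kept its sign under all 8 processing settings, with values from -0.52 to -0.14 over the 4 probes. The setting without a floor and that of probes well above background on both arrays could not change it. For SOD2, 93.6% of the IMQ intensity and 97.4% of the log2 rise remained, and its difference of -0.10 became 0.01 with scaling to the spike-in probes. CYBB, NCF4, CYBA, and SOD1 differed by 0.06, 0.13, 0.07, and 0.17, and each of these turned negative under at least 1 other scaling, whereas catalase (0.25) stayed positive. No technical SD covers a difference between cultures, so whether the NCF1 difference of under 1.3-fold would recur in another culture was not tested.

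**Figure D3:**
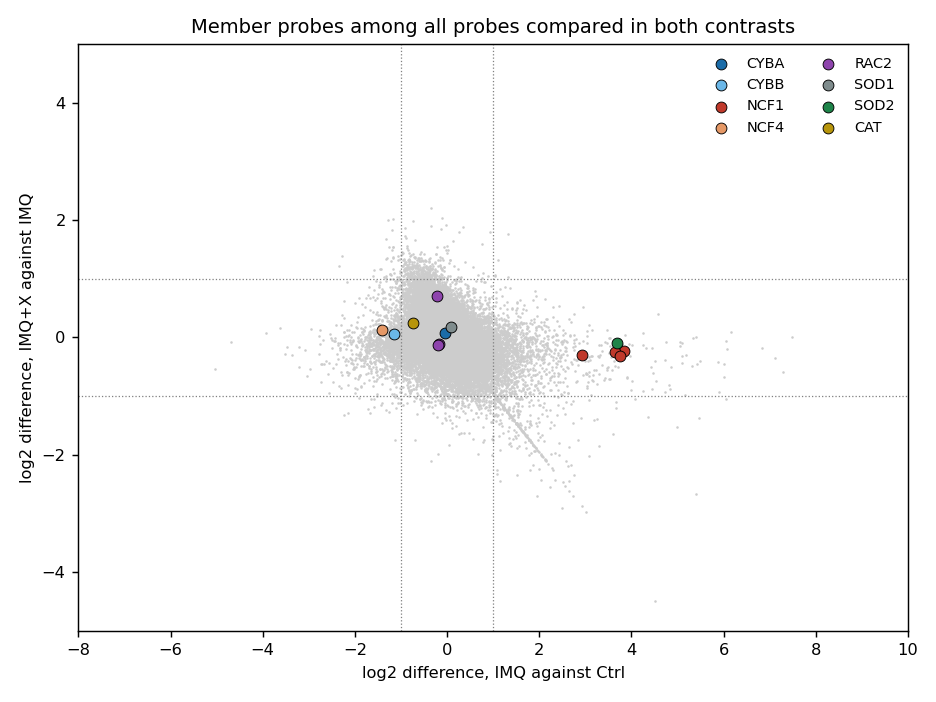
Log2 difference of IMQ against Ctrl (horizontal axis) and of IMQ+X against IMQ (vertical axis) for 39857 probes compared in both (grey; 1 further probe lies outside the axes), with the member probes in color and dotted lines at 2-fold. Both axes use the IMQ array, so that an error on it shifts a point along a falling diagonal. NCF1 and SOD2 lie at the right between 2.92 and 3.84 and just below 0 on the vertical axis.

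Against Ctrl, the IMQ+X array gave the calls that IMQ alone gave, with the Ctrl array shared by both. At least 2-fold higher were 5 member probes (4 of NCF1 and that of SOD2) and at least 2-fold lower were 2 (CYBB and NCF4), beside 3.09% and 4.91% of all 43692 probes compared. NCF1 was 6.12- to 12.1-fold above Ctrl and SOD2 12.1-fold. Catalase was below Ctrl by a log2 difference of -0.49.

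For the 14 member differences of at least 2-fold, the choice of processing changed the size and not the direction. Of the 25 member differences under 2-fold, 9 changed sign under at least 1 setting. Relative to the quantile-normalized values, where the median of all probes was near 0, leaving the arrays unscaled moved the median of all probes for IMQ against Ctrl to -0.51, and scaling to 8 spike-in probes moved it to -0.69. The share of all probes at least 2-fold higher and lower was then 1.72% and 15.6%, and 1.34% and 24.9%. Over all 8 settings, the rise after IMQ ran from 5.07- to 15.2-fold for the NCF1 probes and from 9.15- to 14.1-fold for SOD2. The fall ran from 2.11- to 3.25-fold for CYBB and from 2.48- to 3.84-fold for NCF4. The sign of these 4 genes and their side of the 2-fold threshold held under every setting run. The setting without a floor and that of probes well above background on both arrays could not change them, because every member probe was well above background on every array.

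**Figure D4:**
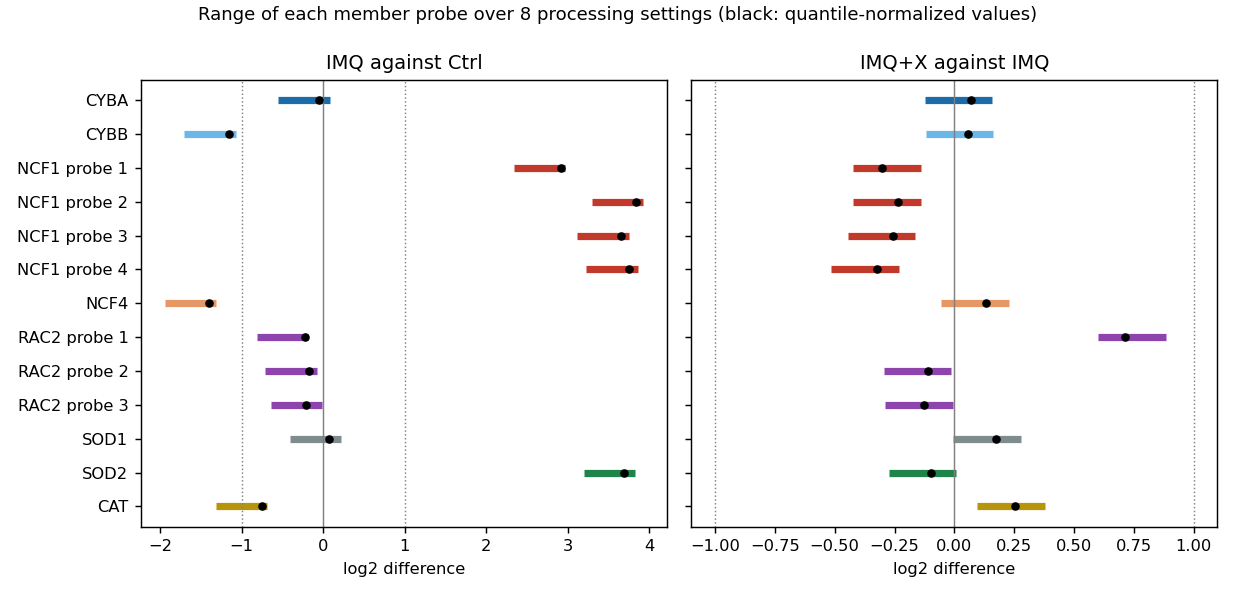
Range of the log2 difference of each member probe over 8 processing settings (bars), with the quantile-normalized value as a black point, for IMQ against Ctrl (left) and IMQ+X against IMQ (right, on a narrower axis). NCF1, SOD2, CYBB, and NCF4 stay beyond the dotted 2-fold lines on the left, the catalase bar crosses the lower line, and on the right the NCF1 bars stay below 0.

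The other genes of the oxidase were read from a list of 13 symbols, of which 12 had a probe. RAC1, the broadly expressed RAC GTPase, had log2 levels of 12.89, 12.78, and 12.69. NOXA1, an activator of the NOX1 oxidase, was the only gene past the threshold among those reported from this list. Its log2 level went from 10.34 in Ctrl to 9.07 and 8.99 on the treated arrays, and it fell by 1.27 after IMQ. Of 13 probes of the list compared between IMQ and Ctrl, 0 were at least 2-fold higher and 1 was lower, and the median was -0.23. Over all probes 4.31% were higher and 3.48% lower. Between IMQ+X and IMQ, 0 of 12 passed the threshold in either direction, beside 1.09% higher and 1.31% lower over all probes. The catalytic subunits of the other oxidases (NOX1, NOX3, NOX4, NOX5, DUOX1, and DUOX2) had log2 levels of at most 7.16, and several of their probes were not well above background.

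The proteins that assemble or prime the oxidase (protein kinases C, PAK1, VAV1, RAP1A, ARHGDIA, ARHGDIB, and PIK3CG; 9 genes, 11 probes) had 0 probes past the threshold in any comparison with the quantile-normalized values. Over all probes compared, 1.09% to 4.91% passed it, depending on the comparison and the direction. After IMQ all 11 lay below 0 with a median of -0.29, beside -0.01 over all probes. With scaling to the 75th percentile 10 of 11 lay below 0, and with scaling to the spike-in probes all 11 did and 2 were at least 2-fold lower, with the median of all probes at -0.69 and 24.9% of all probes at least 2-fold lower.

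Besides SOD1 and SOD2, the secreted dismutase SOD3 had log2 levels of 6.69, 6.85, and 6.26 in Ctrl, IMQ, and IMQ+X. Its difference of -0.59 between IMQ+X and IMQ ran from -0.59 to -0.10 over the settings. CCS, the copper chaperone that loads SOD1, had levels of 10.21, 10.23, and 10.31, within 0.10 of each other.

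Of 19 genes that remove peroxides or recycle the reductants for it, 26 probes were compared between IMQ and Ctrl. At least 2-fold higher were 2 genes, TXNRD1 and SRXN1, and at least 2-fold lower was 1, GPX8 by both probes. In probes this was 2 of 26 in each direction, beside 4.31% higher and 3.48% lower over all probes. TXNRD1, the cytosolic thioredoxin reductase, had log2 levels of 9.25 in Ctrl, 11.18 after IMQ, and 11.89 after IMQ+X. SRXN1, the sulfiredoxin that restores overoxidized peroxiredoxins, had 11.32, 13.22, and 14.02. Each was lowest in Ctrl and highest after IMQ+X, with log2 differences of 1.93 and 1.90 after IMQ and a further 0.71 and 0.79 after IMQ+X. NCF1 was highest after IMQ under all settings, and SOD2 under all but the spike-in scaling, where its IMQ+X level was 0.01 higher. Glutathione reductase (GSR) went from 11.51 to 11.96 and 12.82 by 1 probe and from 10.57 to 10.94 and 11.45 by the other. Between IMQ+X and Ctrl 1 of its probes passed the threshold (1.31) and the other did not (0.87). Over the settings the brighter GSR probe ran from 0.81 to 1.31 and the dimmer from 0.37 to 0.90. In that comparison 3 of 26 probes of the list were at least 2-fold higher and 2 lower, beside 3.09% and 4.91% of all probes.

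GPX8, a peroxidase of the endoplasmic reticulum, fell by 1.88 and 1.54 after IMQ by its 2 probes. With the normexp background correction the log2 difference of the dimmer GPX8 probe was -0.86. The abundant cytosolic enzymes stayed within 2-fold. PRDX1, a peroxiredoxin, had log2 levels of 15.38, 16.11, and 16.34 by 1 probe and 16.09, 16.66, and 16.85 by the other. GPX1, the main cytosolic glutathione peroxidase, had 17.94, 17.62, and 17.59 by its brighter probe, and its differences stayed negative under all settings between IMQ and Ctrl. Between IMQ+X and IMQ, 0 of 26 probes of the list passed the threshold, beside 1.09% higher and 1.31% lower over all probes. Of the 26 probes, 18 lay above 0, beside 48.6% of all probes, and the median was 0.09. With scaling to the 75th percentile 11 lay above 0, and without normalization between arrays 13 did. With scaling to the spike-in probes 25 lay above 0, where the median of all probes was 0.29.

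**Figure D5:**
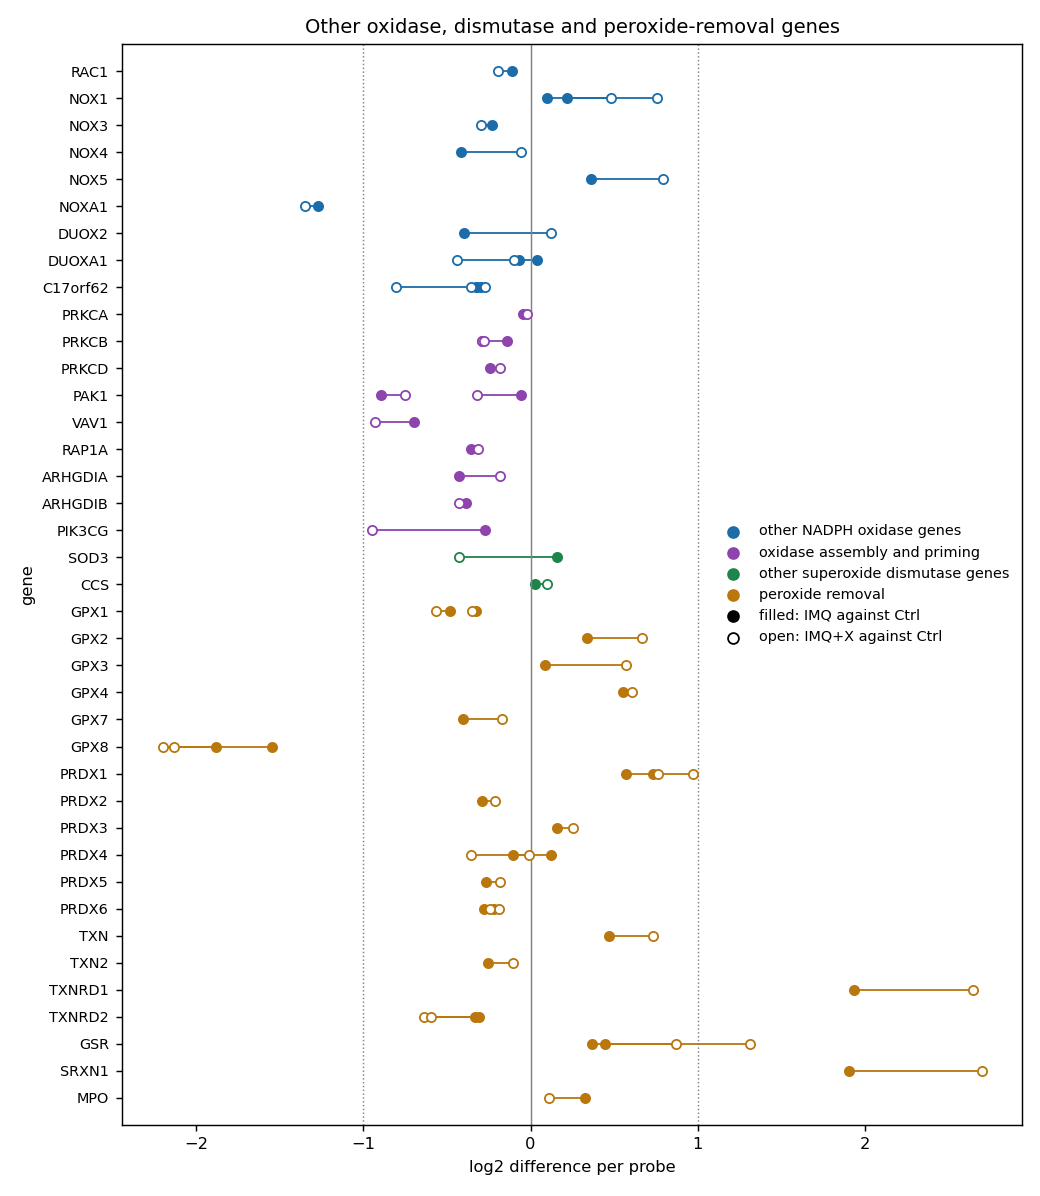
Log2 difference of IMQ against Ctrl (filled) and of IMQ+X against Ctrl (open) on the horizontal axis for 52 probes of 39 other genes on the vertical axis, in color by list, with dotted lines at 2-fold and lines joining the points of a probe. TXNRD1 and SRXN1 lie furthest right and further right after IMQ+X, GPX8 furthest left, and the oxidase assembly genes lie left of 0.

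Of 18185 named genes rated above background on all 3 arrays, the 5 nearest to each changed member by both differences together (IMQ against Ctrl and IMQ+X against IMQ) were listed. For NCF1 probe 4 they were MET, DUSP1, EVA1A, IL7R, and CXCR4, at distances of 0.02 to 0.20 log2 units. For SOD2 they were HIVEP2, NFKBIA, CXCL12, DUSP1, and SAT1, at 0.04 to 0.22. For CYBB they were FHOD1, NUF2, FAR1, MGME1, and SNRNP25, at 0.01 to 0.03, and for NCF4 TRIM58, KCNK5, TRAM2, KIAA0101, and PLP2, at 0.02 to 0.06. DUSP1, a phosphatase of MAP kinases, stood on the lists of both NCF1 and SOD2. NCF1 probe 4 (3.75 and -0.32) and SOD2 (3.69 and -0.10) themselves lay close together in these differences. A gene on both lists therefore shows no link, and none was tested. Likeness over 2 differences of 3 arrays describes these arrays only.

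The 250 bases before the transcription starts that RefSeq lists (GRCh38.p14) were available for 5 of the 8 genes, with 4 starts for SOD2. They were searched on both strands for GGG, 3 free bases, and TTCC (NF-κB type) and the same with 2 free bases and TTTCC (a subset). Also searched were TGANTCA (AP-1) and TGANNNNGC (a looser form of the core of the antioxidant response element). Of 35116 promoters searched, 5.67%, 1.73%, 6.57%, and 35.2% held these motifs. Of the 4 motifs, NCF1 held TGANNNNGC alone, 160 bases before its start. SOD2 held it alone at 1 of 4 starts, 187 bases before it, and its other windows held none of the motifs. As 35.2% of all promoters held TGANNNNGC and SOD2 had 4 windows, these matches do not set the 2 genes apart. The windows with a match are shown, picked because NCF1 and SOD2 rose together, with the match in capitals. That of NCF1 lies at chr7:74773761-74774010 on the plus strand and that of SOD2 at chr6:159726951-159727200 on the minus strand.
NCF1 upstream: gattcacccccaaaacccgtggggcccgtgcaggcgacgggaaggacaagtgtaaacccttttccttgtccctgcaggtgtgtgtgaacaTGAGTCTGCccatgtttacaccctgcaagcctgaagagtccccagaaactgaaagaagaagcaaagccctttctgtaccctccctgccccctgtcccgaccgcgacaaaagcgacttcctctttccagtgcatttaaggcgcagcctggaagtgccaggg
SOD2 upstream: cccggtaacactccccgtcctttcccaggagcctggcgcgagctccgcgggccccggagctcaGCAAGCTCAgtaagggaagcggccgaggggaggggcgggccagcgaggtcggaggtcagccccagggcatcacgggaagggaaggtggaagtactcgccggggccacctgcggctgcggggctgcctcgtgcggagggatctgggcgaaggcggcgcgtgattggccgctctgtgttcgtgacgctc
CAT, which was lower after IMQ, also held TGANNNNGC, 23 bases before its start, and CYBA, which stayed near Ctrl, held the NF-κB type with 3 free bases at 195. CYBB held none of the motifs. A match is a run of letters and no evidence of binding, and a motif absent here may lie outside these windows.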

How the data were processed

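Total RNA of 3 THP-1 samples was labeled with Cy3 and hybridized to 1-color arrays of 60-base probes, all on 1 slide with 1 scan date. The authors deposited the spot intensities from Feature Extraction 10.5.1.1 (build hg19 per the file headers) and a table of raw and quantile-normalized intensity per probe. The raw intensity in that table equaled the scanner values within 0.1% for all 57901 single-spot probes. The 3 detection columns of that table were not used.

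Log2 of the authors' normalized intensity was compared between arrays. A probe not well above background took the higher of its value and the lowest value of probes that were (log2 4.04, 4.57, and 4.08 for Ctrl, IMQ, and IMQ+X), and was compared if the brighter array was well above background. The technical SD was the median SD between repeated spots in bins of 1 log2 unit, combined over both arrays. Median processed intensity was 83.6, 54.4, and 67.7, over local backgrounds of 32 to 34. The number of arrays limits the precision.

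Named were all members, genes of the lists with a 2-fold probe, RAC1, SOD3, GPX1, and PRDX1, and the nearest-pattern genes. NCF1B, CCS, the other oxidase genes, and markers without a 2-fold probe were named after their values were seen. The members and lists were chosen with earlier results of these data known. Alternatives used R 4.3.3 with limma 3.58.1. Python 3.11.15 (numpy 2.4.6, pandas 2.3.3, matplotlib 3.10.9) did the rest. An item of the oxidase list is not reported here. The comparison was tested on simulated data. Printing of probes was planned for coding probes found through a protein table. That table was not used here, so 30 bases were printed.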

Additional observations from a re-analysis of the deposited data

How the results depend on the processing

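The alternatives were values from the scanner files, scaling to the 75th percentile, no normalization, scaling to 8 spike-in probes, normexp with an offset of 50, no floor, probes well above background on both arrays only, 1 probe per gene, thresholds of 1.5- and 4-fold, and leaving out SOD2. Of 93 counts and medians, 75 stayed within their limits and 18 moved. For IMQ against Ctrl the median of the member probes (-0.05) was 0.078 with the 75th percentile, -0.37 without normalization, -0.55 with spike-in scaling, and -0.13 with 1 probe per gene. For IMQ+X against IMQ (-0.10) these values were -0.27, -0.21, 0.0091, and 0.065 in that order, and -0.0258 without SOD2. For IMQ+X against Ctrl the median of 0.25 moved to -0.17 (unnormalized), -0.13 (spike-in scaling), -0.16 (1 probe per gene), and 0.13 (no SOD2). With 1 probe per gene, 2 were higher in both comparisons with Ctrl, since NCF1 then counts once. At 4-fold, 0 were lower in either, and at 1.5-fold 1 was higher for IMQ+X against IMQ. Of 273 values of single probes, 158 stayed within their technical SD and 115 moved. Leaving out the floor, or keeping only probes well above background on both arrays, could not move any of these counts, medians, or values. Every member probe was well above background on every array, so the values under those settings were the main values again and count among those that stayed. Of the 39 differences of member probes, 9 changed sign under at least 1 setting, all of them under 2-fold. No paired analysis was possible because each group has 1 array. For the same reason no array could be left out.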
